A study of Mus musculus with 4 samples.

Results

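The genes described here are 36 genes of ribosome biogenesis, the assembly line that turns ribosomal RNA and ribosomal proteins into ribosomal subunits. They were taken as a list of symbols from known roles in that process and matched to Ensembl identifiers in both count tables, where all 36 were found among 46078 mouse genes. Ribosome biogenesis starts in the nucleolus, where RNA polymerase I transcribes a long precursor RNA. Small nucleolar ribonucleoproteins (snoRNPs) modify the precursor at chosen bases, the small subunit processome folds and cuts it, and further factors build the large subunit and carry it towards the cytoplasm. Fast-dividing cells such as embryonic stem (ES) cells have prominent nucleoli, and the amount of biogenesis a cell carries out is closely tied to its growth.

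The study asked how cell division relates to exit from naive pluripotency. Its mouse ES cells, wild type and with no allele or agent that sets the groups apart other than medium and gate, had grown in 2i, which here also holds the cytokine LIF and which blocks MEK and GSK3 and so keeps ES cells naive. Light scatter in the sorter set a gate for small cells, those leaving mitosis or in G1, and ungated cells were collected beside them. Both fractions then spent 6 h on laminin, either back in 2i or, for differentiation, in N2B27 with neither inhibitors nor LIF, and single cells were sequenced by Smart-seq2. Each of the 4 groups, small and ungated cells of 2i and then of N2B27, is 1 sample of 24 cells, 96 in all. Cells of a sample are not replicates, so no test between groups was possible and no p-value is given. Differences are set against the spread over cells and against all other genes.

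After cells of low quality were left out, 12 of 24, 22 of 24, 20 of 24 and 21 of 24 cells remained in that order, with 1364155 to 4844170 counts on genes per cell. Smart-seq2 has no molecular identifiers, so these counts include copies made by PCR. Each medium had its own library number and lane. Each gate had its own index rows, the sets of cells that share a second index. Medium and gate therefore cannot be told apart from these. The labels do not name a plate. All 8 markers of ES cells were found in most cells of every group, whereas the 6 markers of feeder fibroblasts together reached at most 0.375 CPM (counts per 1000000) in any kept cell. Summed markers of primitive endoderm and of trophoblast had a median of 0 CPM in every group. Their highest single cells reached 142 CPM (primitive endoderm, N2B27 ungated) and 207 CPM (trophoblast, N2B27 small). The cyclone classifier put 6, 5 and 1 of the 2i small cells in G1, S and G2/M, and none, 7 and 15 of the 2i ungated cells. In N2B27 it put 6, 11 and 3 of the small cells and 2, 4 and 15 of the ungated cells in the same phases. None of the classifier's 667 markers is among the 36 genes. A pair of 2i small cells stood apart and passed the quality limits. The cell with the highest share of counts on ERCC, the synthetic RNAs added to each well, had 40.9% of its counts there, and the cell with the most genes detected had 15712 genes and 0.0673% on ERCC.

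Together the 36 genes took a close to equal share of the gene counts of a cell in the 4 groups. They took a median of 1.27% of the gene counts of a cell in 2i small cells (lowest cell 0.833%, highest 1.78%) and 1.18% in 2i ungated cells (0.790% to 1.43%). In N2B27 the medians were 1.20% in small (0.675% to 1.69%) and 1.11% in ungated cells (0.735% to 1.45%). The ranges of all 4 groups overlapped over most of their length, and the ratios of medians between small and ungated cells were 1.08 in 2i and 1.09 in N2B27. Without both 2i small cells that stood apart, an exclusion chosen after seeing the data, the 2i ratio was 1.10. For the share without Npm1 and Ncl, over all kept cells, the ratios were 1.06 in 2i and 0.978 in N2B27. The share of all 36 genes was also similar between the index rows within each gate and medium. In 2i the medians were 1.25% and 1.29% in small and 1.15% and 1.19% in ungated cells. In N2B27 they were 1.19% and 1.23% in small and 1.08% and 1.12% in ungated cells. Across cyclone phases with more than 1 cell the medians ran from 1.04% to 1.29%.

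Per spike-in, by contrast, the small cells held less. A median cell had 0.467 counts on the 36 genes per ERCC count in 2i small cells and 0.933 in 2i ungated cells, a ratio of 0.50. In N2B27 the medians were 0.375 and 0.911, a ratio of 0.411. The ERCC share itself was 3.47% and 1.28% in 2i and 2.45% and 1.14% in N2B27. A lower RNA content per cell and a larger volume of spike-in in the wells of small cells cannot be told apart here. Between the index rows of 2i small cells, which share a gate, the medians per ERCC count were 0.657 and 0.244, and between those of N2B27 small cells 0.511 and 0.283. When each gene was scaled to the spike-ins and its median over cells was compared, an alternative added after seeing the data, all 36 genes were lower in small than in ungated cells in both media, where 72.1% of all genes were in 2i and 60.9% in N2B27. Past 2-fold, 30 of 36 were lower in 2i, where 61.6% of all genes were, and 28 of 36 in N2B27, where 46.8% were. Among all genes on this scale 2732 of 11345 in 2i and 3376 of 10566 in N2B27 had a ratio of exactly 0, which none of the 36 had, so the shares and medians over all genes include genes without a sign. The medians of these log2 ratios were −1.55 in 2i and −1.27 in N2B27, beside −1.56 and −0.86 over all genes. This scale was sensitive to the 2i small cell with 15712 genes, which had 16.1 counts on the 36 genes per ERCC count. With means in place of medians that cell lifted the 2i ratio to 0.60, and without it the ratio was −1.27.

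**Figure D1:**
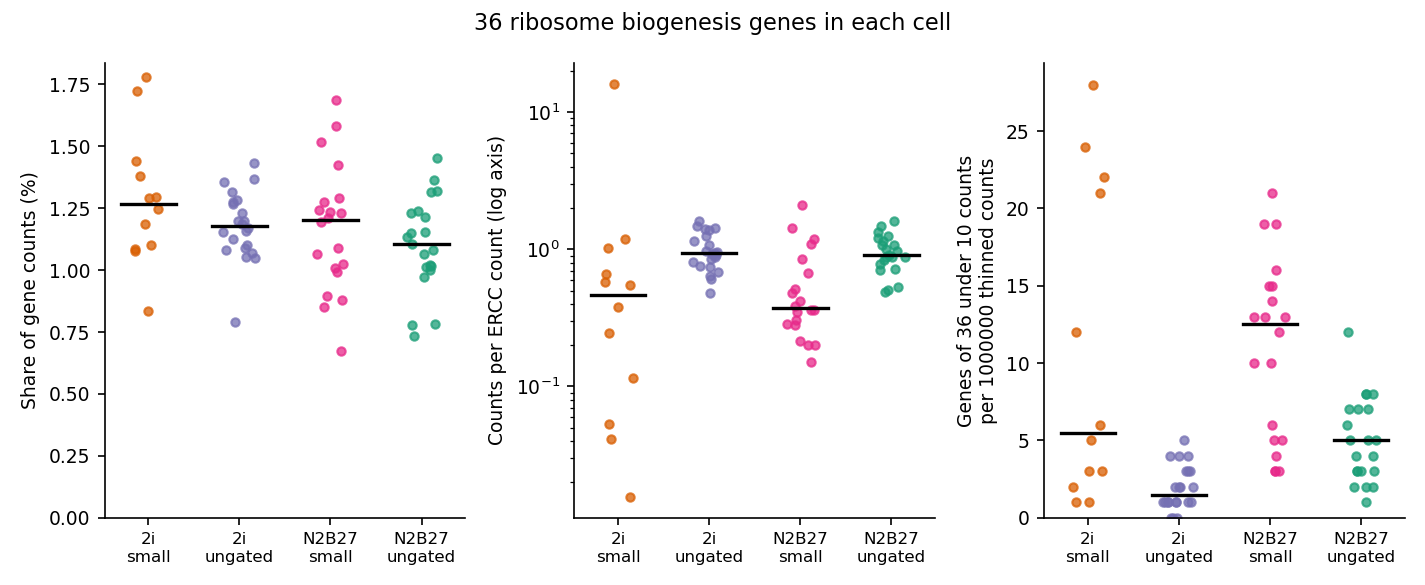
Each point is a kept cell (12 2i small, 22 2i ungated, 20 N2B27 small, 21 N2B27 ungated) and bars are medians. Left, the percent of gene counts on the 36 genes, with medians from 1.11% to 1.27%; centre, counts on the 36 genes per ERCC count on a log axis, with medians of 0.467, 0.933, 0.375 and 0.911; right, the number of the 36 genes under 10 counts once each cell was thinned to 1000000 counts, with medians of 5.5, 1.5, 12.5 and 5.

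While the sum held, fewer of the 36 genes made it up in a small cell. Cells were thinned at random to 1000000 gene counts each, so that depth was equal, and a gene was called present in a cell at 10 or more of these counts, a limit set after seeing the data. A median of 5.5 of the 36 genes were below this limit in 2i small cells (lowest cell 1, highest 28), against 1.5 in 2i ungated cells (0 to 5). In N2B27 the medians were 12.5 in small cells (3 to 21) and 5 in ungated cells (1 to 12). The groups overlap in both media, and the cells with the most genes below the limit were small cells. The same held for expressed genes at large, of which a median of 48.4% and 31.3% were below the limit in 2i small and ungated cells, and 55.8% and 43.7% in N2B27. The gap depended on the limit. With any thinned count taken as present, a median of 33 of the 36 genes were present in 2i small and 35 in 2i ungated cells. In N2B27 these medians were 30 and 33.

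Gene by gene, 31 of the 36 were present in a smaller share of small than of ungated cells in 2i, 5 in an equal share and none in a larger one, where 85.4% of all expressed genes were present in a smaller share. In N2B27 30 of the 36 were present in a smaller share, where 75.5% of all expressed genes were. Without both 2i small cells that stood apart the 2i count was 30, and 83.2% of all genes. The median difference, small minus ungated, was −25 percentage points in 2i and −15.5 in N2B27, beside −21.2 and −11.7 over all expressed genes. Ncl, Npm1 and Nop10 were present in every kept cell. Nop16, a factor of the large subunit, was the exception in N2B27, present in 15 of 20 small and 15 of 21 ungated cells. Among small cells Polr1a was the gene most often below the limit, present in 3 of 12 cells in 2i and 5 of 20 in N2B27. Utp20 was next, with 5 of 12 (as was Fbl) and 6 of 20. Before thinning, at least 1 count of Polr1a was found in 6 of 12 and 7 of 20 of these cells. For Utp20 it was 5 of 12 and 16 of 20.

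**Figure D2:**
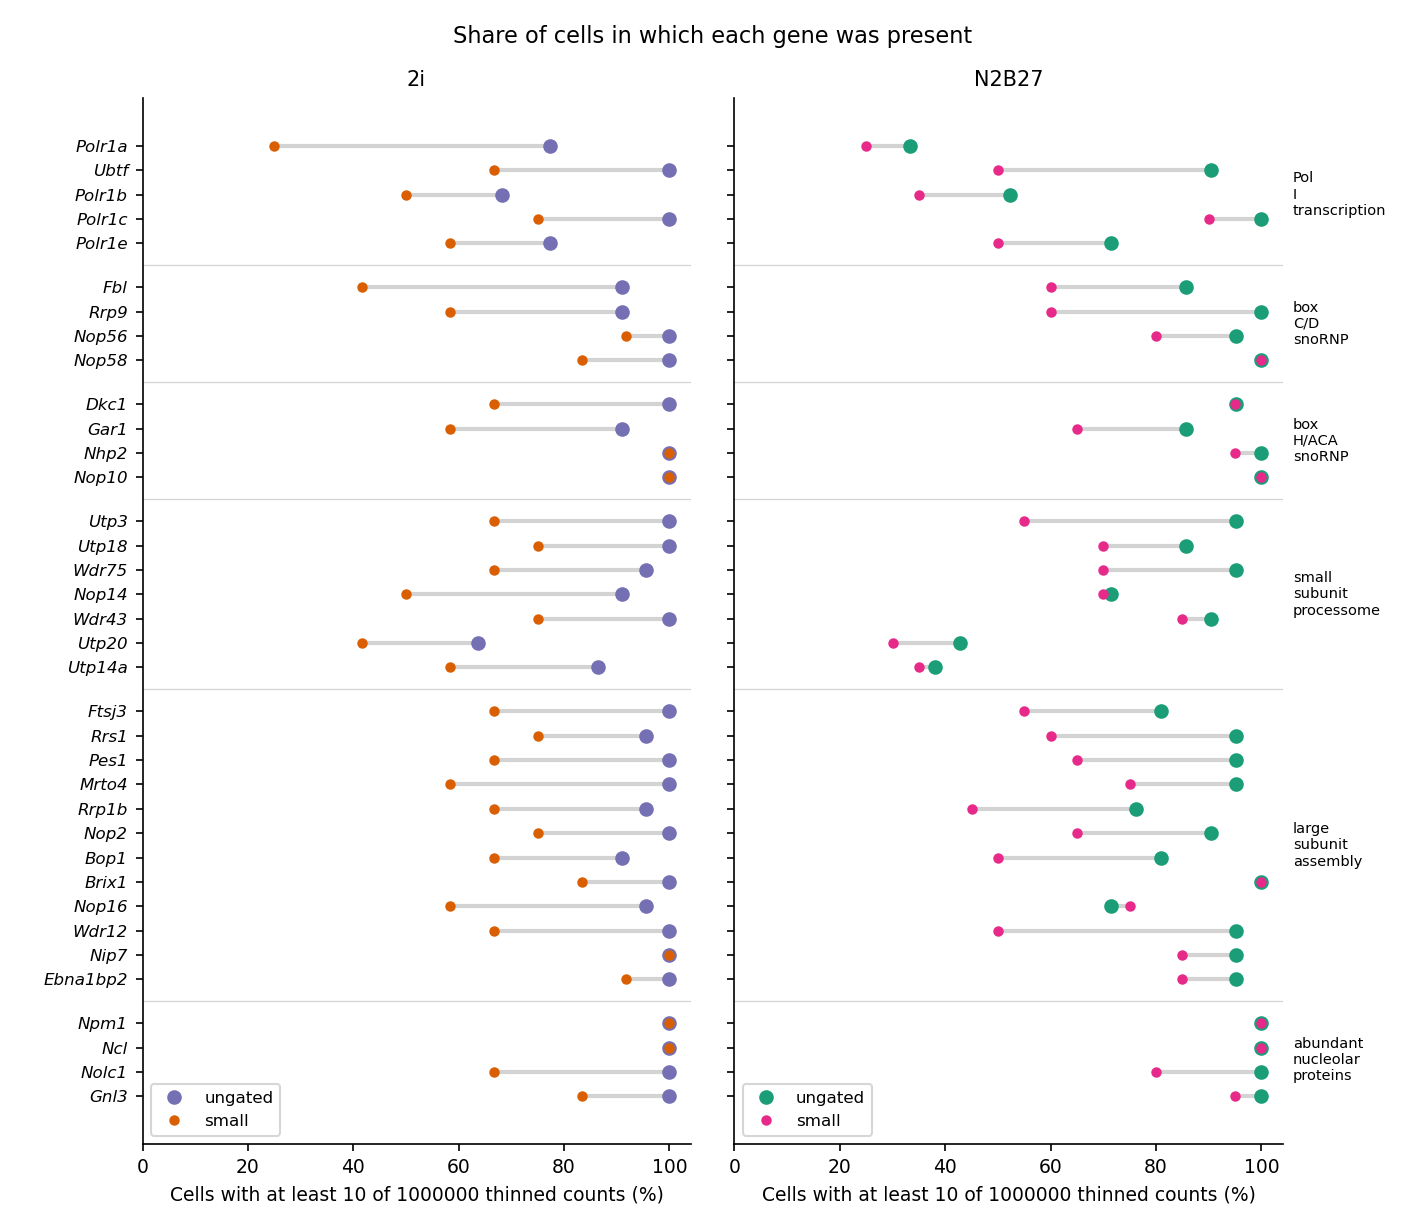
For each of the 36 genes, in rows by role, the percent of kept cells with at least 10 counts after thinning to 1000000 is shown for small and ungated cells in 2i (left) and N2B27 (right); grey bars join the values of a gene. The small value lies left of or on the ungated value for every gene in 2i and for all but Nop16 in N2B27.

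Set against the ERCC share of each cell, the sum and the number of genes present behaved differently. Spearman's rho of the summed share with the ERCC share was −0.18 over 12 2i small cells, 0.12 over 22 2i ungated cells, −0.07 over 20 N2B27 small cells and −0.18 over 21 N2B27 ungated cells. The number of the 36 genes under 10 thinned counts was higher at a higher ERCC share among small cells, with rho of 0.96 in 2i and 0.84 in N2B27, and less so among ungated cells, with 0.34 and 0.49. For the share of expressed genes under the limit, rho was 0.99, 0.61, 0.86 and 0.72 in the order of groups, so the 36 genes followed the transcriptome. The cells of highest and lowest ERCC share in each group were then left out. For the number of the 36 genes under the limit, rho was 0.95, 0.45, 0.78 and 0.35 in the order of groups. For the summed share it was −0.16, 0.01, −0.02 and −0.25. For the share without Npm1 and Ncl it was −0.54, −0.06, −0.06 and −0.13. With all kept cells the last share had a rho of 0.0070 in 2i small cells. The points within a group share a library number and, for each gate, its index rows. The share on ERCC covers a wider range in small cells.

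**Figure D3:**
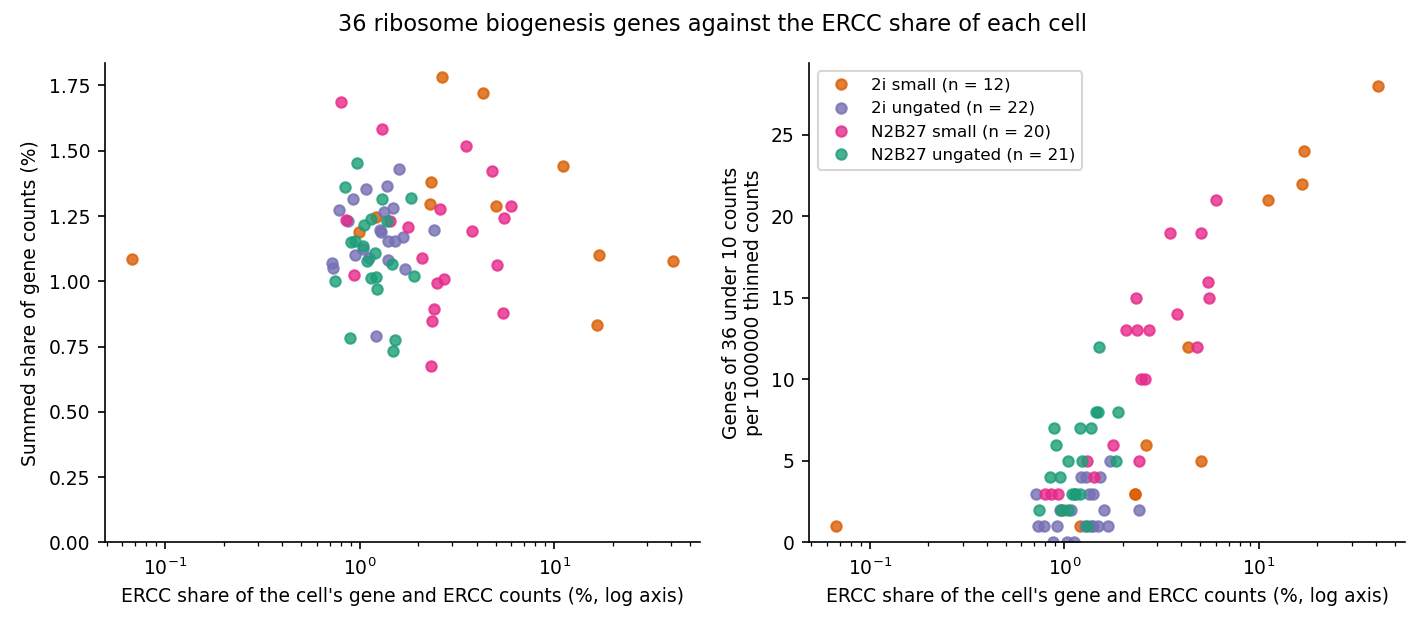
Each point is a kept cell, placed by the percent of its gene and ERCC counts on ERCC (log axis). Left, the summed percent of gene counts on the 36 genes, with rho from −0.18 to 0.12 within groups over a span of 0.0673% to 40.9% ERCC; right, the number of the 36 genes under 10 of 1000000 thinned counts, which climbs from 1 to 28 among 2i small cells.

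The 36 genes span a wide range of levels. Compared per length (normalized counts per kilobase of the shortest principal transcript, mean of the 4 groups), Npm1 was the highest at 2980, followed by Nhp2 at 1776 and Nop10 at 1196, and Polr1a was the lowest at 5.75. Without the 2i small cell with 40.9% ERCC, Nhp2 was at 1549 and Nop10 at 738.8, close to Nop58 at 738.1. Npm1 encodes nucleophosmin, a nucleolar chaperone, and Nhp2 and Nop10 are small core proteins of the box H/ACA snoRNPs. Npm1 lies on chromosome 11 (33152287 to 33163206, minus strand), Nhp2 on chromosome 11 (51619735 to 51623714, plus strand) and Nop10 on chromosome 2 (112261926 to 112263269, plus strand) of GRCm38. Of all counts on the 36 genes, Npm1 and Ncl (nucleolin, a nucleolar RNA-binding protein) together held a median of 31.5%, 31.8%, 34.2% and 31.7% in the order of groups. The level of Ncl per length is low for its counts, because its annotated principal transcript has 8202 bases.

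Npm1 had 889 normalized counts in its lowest 2i small cell, a median of 4765 and 9279 in the highest, against 3797, 4996 and 6306 in 2i ungated cells. In N2B27 it had 2027, 4738 and 9499 in small cells and 1940, 4134 and 6380 in ungated cells. The small cells spread more widely than the ungated ones around similar medians, and the log2 ratios of means between small and ungated cells were −0.03 in 2i and 0.30 in N2B27. Ncl likewise had ratios of 0.14 and −0.15.

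In 2i the list as a whole lay close to genes at large in the comparison of small with ungated cells. The median log2 ratio of mean normalized counts was −0.39 over the 36 genes (24 below 0, where 62% of all genes were) and −0.36 over all 8627 genes tested. Genes were tested where the mean over the compared cells reached 20 normalized counts, and all 36 did so in every comparison. Averaged on the log scale instead, where low cells weigh more, the medians were −1.77 over the 36 genes and −1.41 over all genes in 2i, and −0.99 and −0.77 in N2B27. Past 2-fold, 5 of 36 were higher in small cells (Nop10, Gnl3, Ebna1bp2, Nhp2 and Nolc1), where 16.4% of all genes were, and 3 were lower (Polr1a, Fbl and Ftsj3), where 27.7% of all genes were. Both shares, 13.9% and 8.33%, were below those of all genes. Much of the higher side came from the 2i small cell with 40.9% ERCC. In that cell Gnl3 held 35.3%, Nop10 20.2%, Ebna1bp2 18.5%, Nhp2 11.02%, Nolc1 9.48% and Nip7 3.32% of all counts on the 36 genes, while Ncl and Npm1 had 208 and 118 counts and the other 28 genes at most 4. Its size factor was 0.133, so these counts weigh heavily in a mean. Without it, 2 genes were higher past 2-fold (Nop10 and Nhp2) and 2 were lower (Polr1a and Fbl), where 11.9% and 25.3% of all genes were.

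**Figure D4:**
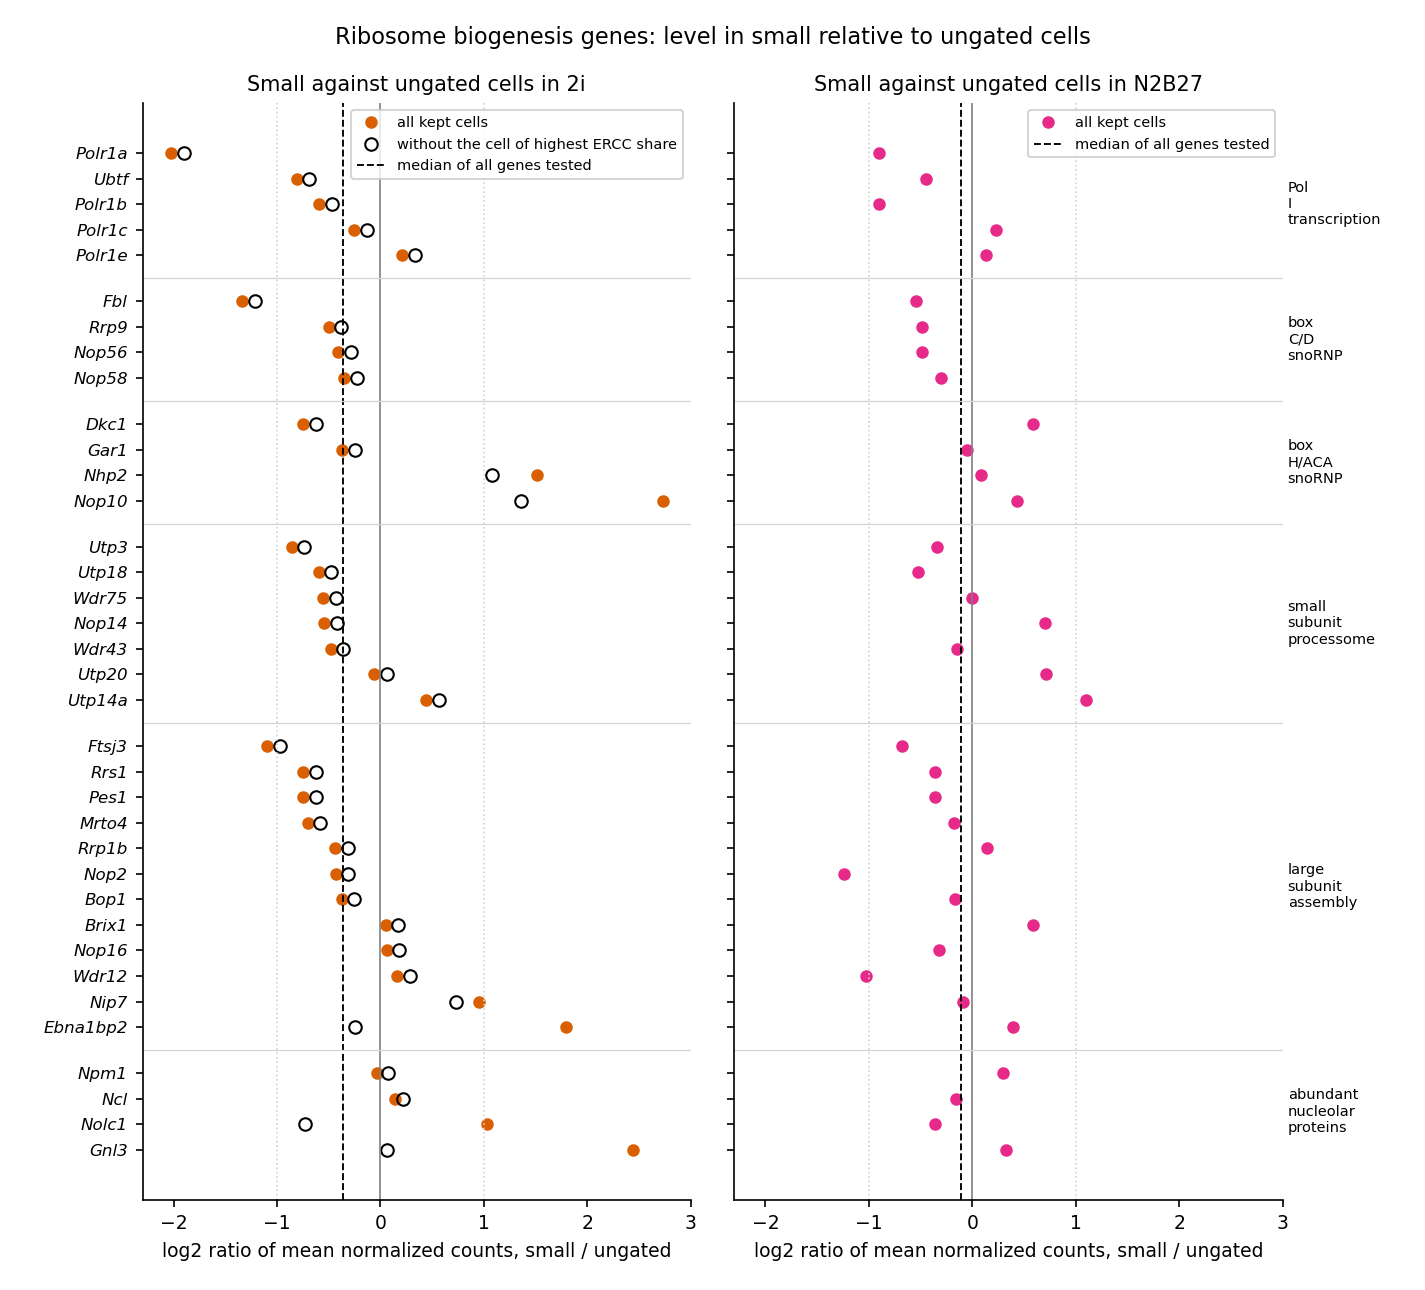
Log2 ratio of mean normalized counts, small over ungated cells, for each of the 36 genes by role in 2i (left) and N2B27 (right); open circles leave out the 2i small cell with 40.9% ERCC, dashed lines are the medians over all genes tested (−0.36 and −0.11) and dotted lines mark 2-fold. Ebna1bp2, Nolc1 and Gnl3 move from above 1 to −0.25, −0.73 and 0.06 without that cell.

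In N2B27 the picture was flatter. The median was −0.16 over the 36 genes (23 below 0, where 54.5% of all genes were) and −0.11 over all 8706 genes tested. Utp14a alone was higher past 2-fold, where 12.7% of all genes were, and Nop2 and Wdr12 were lower, where 16.5% of all genes were. DESeq2's poscounts size factors moved the all-gene medians to 0.44 in 2i and 0.37 in N2B27 and the medians of the 36 genes to 0.35 and 0.24, which is −0.10 and −0.13 relative to all genes.

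Among the genes of RNA polymerase I transcription, Polr1a, which encodes the largest subunit of the enzyme (chromosome 6, 71909053 to 71984935, plus strand), was among the genes with the lowest ratios in both media. In 2i it had 0, 0.247 and 132 normalized counts in the lowest, median and highest small cell and 0, 49.7 and 552 in ungated cells. In N2B27 the lowest, median and highest were 0, 0 and 307 in small cells and 0, 1.03 and 595 in ungated cells. The groups overlap, and the medians of all groups but 2i ungated lie near 0. The log2 ratios were −2.02 in 2i and −0.90 in N2B27. An antisense gene overlaps 185 exonic bases of Polr1a, where reads are ambiguous and not counted if strand is not kept.

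Polr1b, the second largest subunit, had ratios of −0.59 and −0.90. Ubtf, the nucleolar transcription factor that opens ribosomal DNA, had −0.81 and −0.45, whereas Polr1c, a subunit shared with RNA polymerase III, had −0.26 and 0.23 and Polr1e had 0.21 and 0.14.

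The 4 box C/D genes (Fbl, Nop56, Nop58 and Rrp9), whose snoRNPs methylate or help to cut ribosomal RNA, were below 0 in both media, from −1.33 to −0.35 in 2i and from −0.55 to −0.30 in N2B27. Fbl encodes fibrillarin, the methyltransferase (chromosome 7, 28169710 to 28179269, plus strand). In 2i it had 0, 12.2 and 61.5 normalized counts in the lowest, median and highest small cell and 19.6, 45.6 and 83.4 in ungated cells. In N2B27 it had 0, 30.8 and 101 in small and 10.96, 43.4 and 127 in ungated cells. Small cells reached the level of ungated cells but also extended to 0, in a gene with 3608 counts over all cells. Only the 2i ratio of Fbl, −1.33, passed 2-fold in this role. A ratio below 0 was the more frequent sign among all genes too, at 62% in 2i and 54.5% in N2B27.

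The box H/ACA genes, whose snoRNPs turn uridines into pseudouridines, had ratios of both signs. Nop10 had 268, 709.6 and 25616 normalized counts in the lowest, median and highest 2i small cell and 277, 467 and 906 in 2i ungated cells. The highest value is that of the cell with 40.9% ERCC, and the next was 4360, still above every ungated cell. Its log2 ratio was 2.74 with all cells, 1.36 without that cell and −0.0070 among cells in S only. In N2B27 it had 245, 737 and 2003 in small cells and 279, 489 and 1513 in ungated cells, with a ratio of 0.44.
Nhp2 had 1290, 2228 and 13968 in 2i small cells and 665, 1206 and 1703 in 2i ungated cells, with a ratio of 1.52, and 1.08 without the same cell. In N2B27 it had 13.7, 1326 and 5177 in small and 326, 1234 and 2284 in ungated cells, with a ratio of 0.08. Most 2i small cells lay above every 2i ungated cell for Nhp2, whereas N2B27 small cells, other than 1 at 5177, lay within the range of ungated cells or below it. Gar1 had ratios of −0.37 and −0.05. Dkc1, the pseudouridine synthase dyskerin, had −0.74 in 2i and 0.59 in N2B27.

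Of the 7 genes of the small subunit processome, 6 were below 0 in 2i and 4 in N2B27, beside 62% and 54.5% of all genes. Utp14a had 0, 1.47 and 1067 normalized counts in the lowest, median and highest N2B27 small cell and 0, 0.989 and 349 in ungated cells, so its log2 ratio of 1.10 rested on a few high cells while both medians were near 1 count. In 2i its values were 0, 67.4 and 1152 in small and 0, 75.6 and 493 in ungated cells, with a ratio of 0.44. A noncoding gene on the opposite strand overlaps 473 exonic bases of Utp14a, where the same limit on ambiguous reads holds.
Utp20, a large scaffold protein, had 0, 1.66 and 858 in N2B27 small and 0, 1.74 and 341 in N2B27 ungated cells, with a ratio of 0.72. A single cell held 53.1% of its counts in the small group. In 2i it had 0, 0 and 566 in small and 0, 41.5 and 362 in ungated cells, and −0.06. Nop14 had 0, 345 and 1316 in N2B27 small and 0, 191 and 701 in N2B27 ungated cells, with a ratio of 0.70, against −0.54 in 2i, where it had 0, 62.4 and 371 in small and 0.689, 170 and 532 in ungated cells. The ranges overlap for all 3 genes in both media.

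Among the 12 genes of large subunit assembly, 7 were below 0 in 2i and 9 in N2B27, beside the same shares of all genes. Nop2, a methyltransferase of the large subunit RNA (chromosome 6, 125131909 to 125144753, plus strand), had the lowest ratio in N2B27, at −1.24. Its lowest, median and highest N2B27 cells had 0, 292 and 1591 normalized counts in the small group and 0.904, 746 and 1993 in the ungated group. In 2i it had 1.88, 601 and 1115 in small and 133, 707 and 1738 in ungated cells, with a ratio of −0.43. In N2B27 the small cells divided between some at or near 0 and others at the level of ungated cells.
Wdr12, which forms the PeBoW complex with Pes1 and Bop1, had 0, 54.9 and 1034 in N2B27 small and 2.24, 421 and 991 in N2B27 ungated cells, with a ratio of −1.03. In 2i its values were 2.00, 307 and 2281 in small and 224, 479 and 914 in ungated cells, with 0.16. Its partners Pes1 and Bop1 had −0.36 and −0.16 in N2B27 and −0.74 and −0.37 in 2i.

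Ftsj3, another methyltransferase of ribosomal RNA, had 0, 291 and 651.5 normalized counts in 2i small and 146, 503 and 1250 in 2i ungated cells, with a ratio of −1.09, which was −0.97 without the cell with 40.9% ERCC. In N2B27 its values were 0, 38.4 and 599 in small and 0, 242 and 796 in ungated cells, with −0.68.
Ebna1bp2, a scaffold of early large subunit particles, had 0, 623 and 23484 in 2i small and 414, 650.0 and 1173 in 2i ungated cells. Its ratio was 1.79, and −0.25 without the cell that holds the highest value. In N2B27 it had 0, 658 and 1534 in small and 2.99, 464 and 846 in ungated cells, with 0.40. Gnl3, which encodes nucleostemin, a nucleolar GTPase of stem cells and other dividing cells, had 7.28, 870.2 and 44700 in 2i small and 257, 848 and 1403 in 2i ungated cells. Its ratio of 2.44 became 0.06 without the same cell. In N2B27 its values were 5.25, 935 and 3567 in small and 76.3, 733 and 1982 in ungated cells, with 0.33. The 2i medians of both genes were close to equal between the gates.

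**Figure D5:**
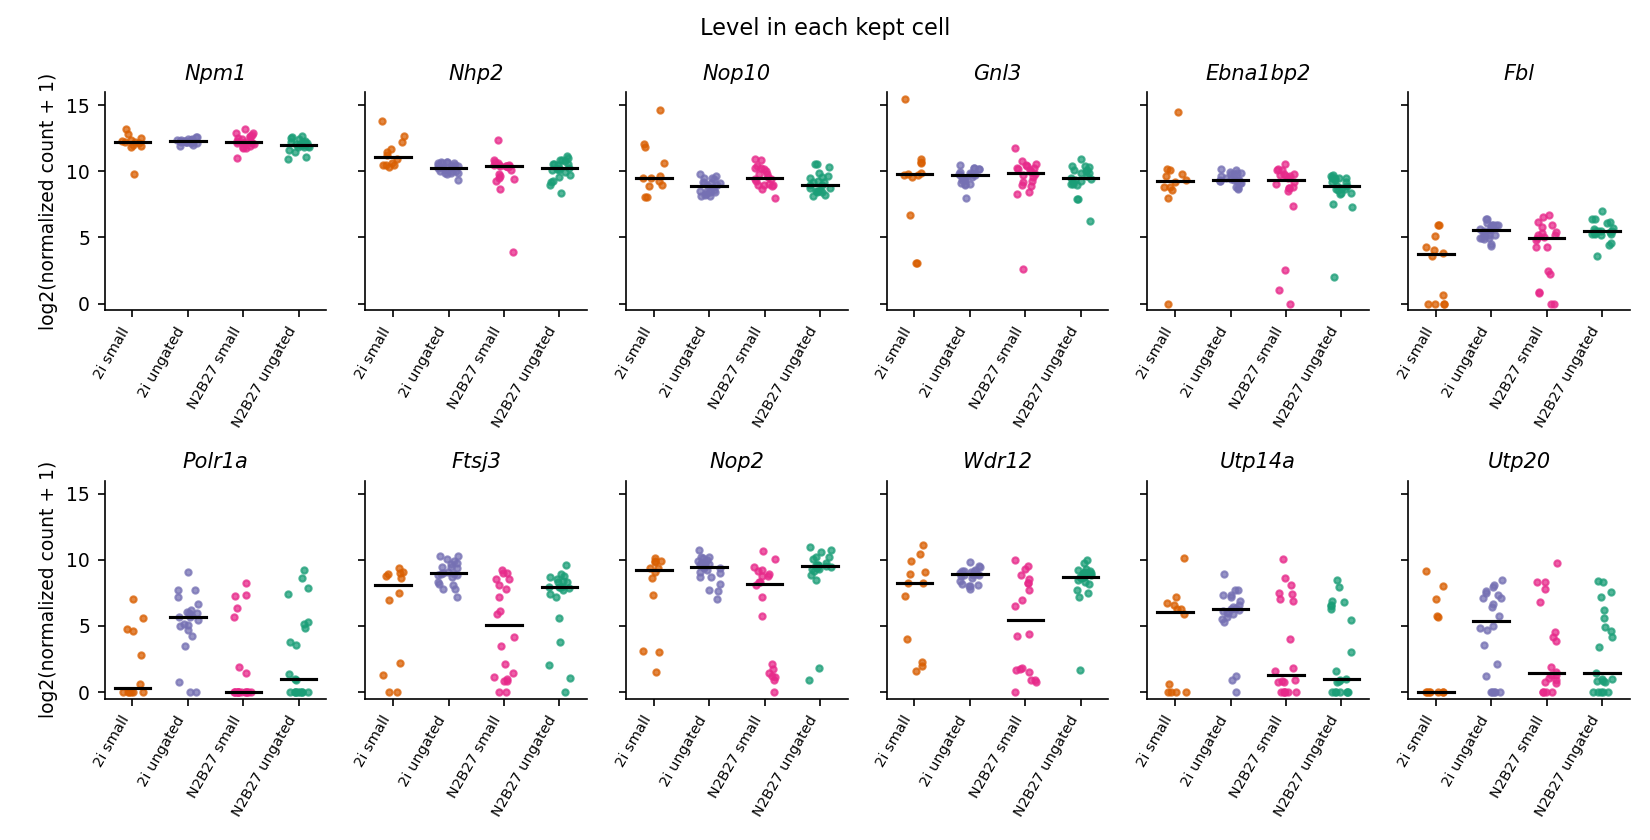
Level of 12 of the genes in each kept cell, as log2 of the normalized count plus 1, with medians as bars. Npm1 and Nop10 stay high in all cells, whereas Ftsj3, Nop2 and Wdr12 split into high and near-zero cells in N2B27 small cells, and the 2i small cell with 40.9% ERCC gives the topmost point of Nhp2, Nop10, Gnl3 and Ebna1bp2.

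Between media, which also differ in library number and lane, fewer of the 36 genes were present in N2B27. The median number under 10 thinned counts was 1.5 in 2i and 5 in N2B27 among ungated cells, and 5.5 and 12.5 among small cells. As shares of the 36 genes these were 4.17% and 13.9% in ungated cells and 15.3% and 34.7% in small cells. Over expressed genes at large the median shares were 31.3% and 43.7% in ungated cells and 48.4% and 55.8% in small cells. In mean levels of ungated cells the median log2 ratio of N2B27 against 2i was −0.06 over the 36 genes and −0.02 over 8682 genes tested. None of the 36 was higher past 2-fold, where 7.95% of all genes were, and only Ftsj3 was lower, at −1.22, where 9.55% of all genes were. Dkc1 followed with −0.97, with 740, 1651 and 2921 normalized counts in the lowest, median and highest 2i ungated cell and 1.01, 781 and 2059 in N2B27. The largest rises were those of Polr1e at 0.61 and Wdr75 at 0.59. Polr1e had 0, 99.7 and 473 in 2i ungated and 0, 173 and 1287 in N2B27 ungated cells, and Wdr75, a protein of the processome, had 5.96, 289 and 647 against 1.497, 386 and 1323. These ranges overlap for all 4 genes.

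In small cells the median of N2B27 against 2i was 0.07 over the 36 genes and 0.13 over 8504 genes tested. Nop14 (1.34) and Wdr75 (1.14) were higher past 2-fold, where 23.8% of all genes were. Wdr75 had 0, 241 and 634 normalized counts in the lowest, median and highest 2i small cell and 0, 468 and 1367 in N2B27 small cells, so the ranges overlap. Lower past 2-fold were 7 genes, where 17.9% of all genes were: Gnl3 (−2.13), Ebna1bp2 (−1.98), Nop10 (−1.92), Nhp2 (−1.44), Nolc1 (−1.37), Wdr12 (−1.30) and Nip7 (−1.13). These share the 2i small cells with the gate comparison in 2i. Without the cell with 40.9% ERCC only Wdr12 was lower past 2-fold, at −1.43, where 13.3% of all genes were, and Gnl3 and Ebna1bp2 were at 0.25 and 0.06.

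Gene by gene, the correlation with the ERCC share followed the transcriptome among small cells. In 2i small cells 31 of 36 genes had a rho below 0, where 86.8% of 8751 genes did, and in N2B27 small cells 26 of 36, where 73% did. In ungated cells 15 of 36 were below 0 in 2i and 19 of 36 in N2B27, where 55.3% and 59% of genes were. The median rho of the 36 genes in 2i ungated cells was 0.07, beside −0.03 over all genes. In N2B27 ungated cells it was −0.01, beside −0.05. Ranked by the median of the 4 groups, Nop10 (0.19), Utp20 (0.18) and Nhp2 (0.15) were the most positive and Ftsj3 (−0.49), Nop2 (−0.37) and Gar1 (−0.35) the most negative. Nhp2 and Nop10 had rho of 0.91 and 0.77 in 2i small cells and 0.25 and 0.32 in N2B27 small cells, but 0.05 and 0.06 in 2i ungated and −0.20 and −0.05 in N2B27 ungated cells. Nop2 had −0.87 in N2B27 small and 0.43 in N2B27 ungated cells. Gar1 had 0, 45.1 and 731 normalized counts in the lowest, median and highest 2i small cell, 21.1, 154 and 288 in 2i ungated cells, 0, 73.0 and 510 in N2B27 small cells and 0, 141 and 260 in N2B27 ungated cells. The points of a group share their library number, and gene levels and ERCC share of a cell come from the same library.

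Pairs of the 36 genes correlated slightly more across cells than pairs of other genes. Over their 630 pairs the median rho was 0.25 in 2i small, 0.05 in 2i ungated, 0.06 in N2B27 small and 0.06 in N2B27 ungated cells, beside 0.14, 0.0040, 0.04 and 0.01 over all pairs of expressed genes. The pair with the highest median over the groups was Gar1 and Rrs1, a factor of the large subunit, with 0.75, 0.43, 0.59 and 0.21, and the next was Pes1 and Rrs1 with 0.39, 0.52, 0.41 and 0.55. Among subunits of a complex, the 3 pairs of the PeBoW genes had median rho of 0.38, 0.02, 0.23 and −0.23, and the 6 pairs of the box H/ACA genes −0.53, 0.09, 0.09 and 0.11.

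Other genes of the same pathway were read from a list of 144 symbols, of which 135 were found. Their summed share of gene counts was 1.87%, 1.85%, 1.66% and 1.82% in the order of groups, also close to equal. Between small and ungated cells their median log2 ratio was −0.28 in 2i and −0.11 in N2B27, beside −0.36 and −0.11 over all genes. Past 2-fold in 2i, 8 of 135 were higher and 24 lower, where 16.4% and 27.7% of all genes were. In N2B27, 8 of 134 were higher and 17 lower, where 12.7% and 16.5% of all genes were. Shq1, an assembly factor of box H/ACA snoRNPs, and Nsa2 had the highest ratios in 2i, at 4.60 and 3.46, and Diexf and Rrp12 the lowest, at −4.67 and −4.08. In N2B27 the highest were Urb2 (2.95) and Mdn1 (2.71) and the lowest Ddx31 (−3.25) and Diexf (−2.21). Of 20 small and 21 ungated cells, Urb2 had counts in 13 and 7 and Mdn1 in 16 and 13. Ddx31 had counts in 5 and 9 and Diexf in 4 and 7.
The 79 cytoplasmic ribosomal protein genes, the protein parts of the ribosome itself, differed from the biogenesis genes. They took a median of 3.59% of gene counts in 2i small, 2.66% in 2i ungated, 3.77% in N2B27 small and 3.07% in N2B27 ungated cells, with ratios between small and ungated cells of 1.35 and 1.23. Of those tested, 61 of 76 were above 0 in small against ungated cells in 2i, where 38% of all genes were. In N2B27 63 of 77 were above 0, where 45.5% of all genes were. The median log2 ratios were 0.90 in 2i and 0.27 in N2B27. The 2i log2 ratios include the cell with 40.9% ERCC, whose share of 7.30% was the highest among 2i small cells. They were not computed without that cell. Without both 2i small cells that stood apart, the ratio of median shares in 2i was 1.33. The summed share of these genes had a rho with the ERCC share of 0.48 in 2i small, 0.16 in 2i ungated, 0.50 in N2B27 small and −0.09 in N2B27 ungated cells. Members of this family share reads with many processed pseudogenes, so their counts are uncertain.

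The MYC family regulates many ribosome biogenesis genes through the E-box, a motif with the letters CACGTG that reads the same on both strands. Mycn had counts in 11, 22, 19 and 21 cells in the order of groups and Myc in 3, 7, 6 and 8. Between small and ungated cells in 2i and N2B27, Mycn had ratios of −1.14 and −1.10, Max −0.08 and −1.28 and Mlx −1.49 and 0.23. Past 2-fold, 2 of 3 family genes tested were lower in 2i (Mycn and Mlx), where 27.7% of all genes were. In N2B27 3 of 5 were lower (Mycn, Max and Mxd3), where 16.5% of all genes were. Mxd3 was at −5.39 there, with counts in 2 of 20 small and 10 of 21 ungated cells. Myc itself was at −0.60 in N2B27 and was not tested in 2i. The promoters of 32 of the 36 genes, 250 bases before to 50 after each start site, were found in the RefSeq table for GRCm38.p6, and those of Bop1, Fbl, Npm1 and Rrs1 were not. The motif occurred in 5 of the 32 (15.6%): Nop2, Pes1, Utp18, Utp20 and Wdr43. It occurred in 20.2% of 114 other biogenesis genes, 10.3% of 58 ribosomal protein genes and 8.09% of all 27025 genes with a promoter in the table. The promoters of the 36 genes had a median GC content of 58.3%, against 52.7% over all genes, and the motif holds a CpG. A match of letters does not show that a factor binds. The stretches around the motif are given for Nop2 and Utp20, the matching genes among those described by cell, with the motif in capitals. That of Nop2 covers the 100 bases before the start site (chr6:125131783-125131882, plus strand). That of Utp20 is a stretch of 30 bases after its start site (chr10:88826765-88826794, minus strand).
Nop2: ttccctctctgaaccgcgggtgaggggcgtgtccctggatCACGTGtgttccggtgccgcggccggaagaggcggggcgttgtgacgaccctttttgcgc
Utp20: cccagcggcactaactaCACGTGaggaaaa
The motif begins 60 bases before the start site in Nop2 and at base 38 in Utp20. Between small and ungated cells the 5 genes with a match had ratios of −0.43 (Nop2), −0.74 (Pes1), −0.60 (Utp18), −0.48 (Wdr43) and −0.06 (Utp20) in 2i. In N2B27 they were at −1.24, −0.36, −0.52, −0.15 and 0.72 in the same order, the last being the value of Utp20 that rested largely on 1 cell. Of all genes 62% were below 0 in 2i and 54.5% in N2B27. A link between these ratios and the MYC family was not tested.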

How the data were processed

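Reads of 96 mouse ES cells were trimmed with Trim Galore 0.4.4 per the submitters' processing notes. The authors aligned them with GSNAP to mm10 (GRCm38), counted them per Ensembl gene with HTSeq and deposited raw counts for each cell. Gene rows held 72.4% of all counts. Ambiguous reads are not counted; snoRNA genes overlap exons of Ncl, Gnl3, Nop56 and Nop58, and 1 pseudogene named after Mrto4 took 2761 counts.

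Quality limits (scater 1.30.1) were set at 3 median absolute deviations, separately for each library number. They were 307960 counts, 4435 genes and 5.16% mitochondrial counts in 2i, and 1250614, 5316 and 4.67% in N2B27. Normalized counts used DESeq2 1.42.0 size factors over 1227 genes found in all kept cells. Ratios are log2 of means plus a pseudocount of 1. Phases came from cyclone (scran 1.30.0, R 4.3.3). No doublets were called. Lengths come from GENCODE M21. Scripts (Python 3.11.15, pandas 2.3.3) were tested on simulated data. Genes described by cell are the 3 highest per length, the 3 most extreme in each direction between gates, the 2 between media, and the 3 at either end by rho. The genes, lists and rules were chosen with earlier results of these data known.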

Additional observations from a re-analysis of the deposited data

How the results depend on the processing

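Each group is 1 sample of 12 to 22 kept cells, so no setting gives a replicate error, and depth limits the genes near 1 count per cell. No paired analysis was possible because each group is 1 sample. ERCC medians, ERCC factors without the cell of most genes and the exclusion of both cells that stood apart were added after seeing the data. The cause of a change was not tested where no cell is named. Of 2592 single-gene values under other settings, 386 had another sign than the reported one: 58 of genes past 2-fold as reported, and 328 of genes within 2-fold, of which 56 came to lie past 2-fold. With the sign kept, 100 fell below 2-fold and 240 passed it.

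For small against ungated cells in 2i (median −0.39, 8 genes past 2-fold) the median was 0.35 with poscounts factors, 0.60 with ERCC factors, −1.77 with means of log2 values, −0.63 without the highest cell of each gene, −0.58 with medians over cells, −1.55 with ERCC medians and −1.27 with ERCC factors without the cell of most genes. The number past 2-fold was 17 with all 24 cells, 4 with CPM, 4 with pooled counts, 30 with means of log2 values, 3 when thinned, 3 in S only, 4 without the cell of highest ERCC share, 30 with ERCC medians, 28 with ERCC factors without the cell of most genes and 4 without both cells that stood apart.

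For N2B27 (median −0.16, 3 genes) the median was 0.24 with poscounts factors, −0.80 with ERCC factors, −0.99 with means of log2 values and −1.27 with ERCC medians. The number was 5 with all cells, 7 with poscounts factors, 10 with ERCC factors, 18 with means of log2 values, 9 with medians over cells and 28 with ERCC medians.

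For N2B27 against 2i in small cells (median 0.07, 9 genes) the median was −1.46 with ERCC factors and 0.47 with these but without the cell of most genes. The number was 3 with CPM, 25 with ERCC factors, 2 with pooled counts, 14 with means of log2 values, 14 with medians over cells, 3 when thinned, 5 in S only, 3 without the cell of highest ERCC share, 3 with ERCC factors without the cell of most genes and 5 without both cells. In ungated cells (median −0.06, 1 gene) the median was 0.36 with poscounts factors and −0.48 with means of log2 values, and the number was 9 with all cells, 10 with fixed limits of 100000 counts and 4000 genes, 2 with poscounts factors, 0 with ERCC factors, 2 with pooled counts, 9 with means of log2 values, 3 without the highest cell of each gene, 6 with medians over cells, 5 in S only and 5 with ERCC medians.

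The rho of the summed share with the ERCC share in 2i small cells was −0.47 with all cells and −0.79 for the mean log2 level. In 2i ungated cells it was −0.14 with all cells, −0.19 for the mean log2 level and 0.43 in S only. It was −0.76 for the mean log2 level in N2B27 small cells, and −0.45 in N2B27 ungated cells with all cells and with fixed limits. For the mean log2 level of all expressed genes rho was −0.95 in 2i small, −0.59 in 2i ungated and −0.86 in N2B27 small cells.

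Only genes past 2-fold as reported are listed singly here. Between small and ungated cells in 2i those that changed sign were as follows. Nolc1 was at −1.57 with all cells, −0.16 with CPM, −0.10 with ERCC factors, −0.27 with pooled counts, −1.97 with means of log2 values, −0.66 without its highest cell, −1.56 with medians, −0.12 when thinned, −0.65 in S only, −0.73 without the cell of highest ERCC share, −2.43 with ERCC medians, −1.27 with ERCC factors without the cell of most genes and −0.65 without both cells. Ebna1bp2 was at −0.53 with means of log2 values, −0.21 without its highest cell, −0.060 with medians, −0.11 in S only, −0.25 without the cell of highest ERCC share, −2.03 with ERCC medians, −1.47 with ERCC factors without the cell of most genes and −0.21 without both cells. Gnl3 was at −2.62 with all cells, −0.51 with means of log2 values, −0.46 with ERCC medians and −0.87 with ERCC factors without the cell of most genes. On these last settings Nhp2 was at −0.55 and −0.74 and Nop10 at −0.78 and −0.96, and Nop10 was at −0.0070 in S only. In N2B27 Utp14a was at −0.24 with ERCC factors, −0.066 in S only and −0.77 with ERCC medians.

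Between media in small cells, Wdr75 was at −1.32 and Nop14 at −0.63 with ERCC factors. Nolc1 was at 0.19 without its highest cell, 0.49 with means of log2 values, 1.17 with medians, 0.39 without the cell of highest ERCC share, 1.29 with ERCC medians, 0.30 with ERCC factors without the cell of most genes and 0.31 without both cells. Gnl3 was at 0.048, 0.38, 0.10, 0.25, 0.48 and 0.23 on the same settings other than ERCC medians. Nop10 was at 0.71 in S only, 0.054 with medians, 0.39 with ERCC medians and 0.96 with ERCC factors without the cell of most genes. Ebna1bp2 was at 0.078 with medians, 0.064 without the cell of highest ERCC share, 0.69 with ERCC medians, 0.76 with ERCC factors without the cell of most genes and 0.028 without both cells. Nhp2 was at 0.0046 with ERCC factors without the cell of most genes.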
